A study of Rattus norvegicus and Mus musculus with 9 samples.

Results

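The genes described here build the actin and intermediate filament cytoskeleton and the contractile apparatus: actins, myosin chains, tropomyosins, troponins, calponin-family proteins, filament cross-linkers, intermediate filaments and lamins. They were chosen by symbol from a list of 49 genes, and 44 of them were measured among the 14511 named genes of the rat arrays. Cnn2, Myl4, Flnc and Fscn1 had no rat probe set under their symbol, and the rat probe set listed for Myl6 also lists other genes and was not named. Of the 49, 48 were named in the mouse table, Actg1 being listed only together with Actb, and 43 genes were named in both tables. Rat embryonic stem (ES) cells of strain DA, kept in the medium called 3I, were compared with embryonic fibroblasts of the same rat strain, kept in GMEM with 10% FBS. Mouse ES cells of strain C57/BL6, kept in that serum medium plus LIF, were set beside both. Each of the 3 groups had 3 arrays. Feeder cells were taken off the mouse cultures before RNA was made, per the labels, which say nothing of feeders for the rat ES cultures. Nothing in the labels ties the arrays to separate cultures, and p-values may therefore rest on technical spread alone.

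Actin filaments form from actin monomers, are bundled by cross-linking proteins, and slide against myosin in contractile cells and in the stress fibres of fibroblasts. Tropomyosins lie along the filament and set which proteins may bind it, while calponin and caldesmon restrain myosin in smooth muscle. Many of these genes are targets of serum response factor (SRF), which binds a short sequence named the CArG box together with the cofactors myocardin or MRTF. ES cells grow as compact colonies with epithelial character, whereas cultured fibroblasts spread on the dish and carry prominent stress fibres.

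The cells were first checked against markers that are not among the genes described. In rat ES cells, all 7 measured pluripotency markers were called higher and 9 of 10 fibroblast markers lower than in rat fibroblasts. Of the fibroblast markers, Dcn (decorin) and Lum (lumican) lay below the array medians on all rat fibroblast arrays, at means of 4.06 and 5.57 on the log2 scale. No skeletal muscle marker of 7 was called, and of 7 cardiac markers the transcription factor gene Tbx5 was called lower in rat ES cells, by -1.34. The rat array medians lay between 5.71 and 5.74, and precision is limited by having 3 arrays per group.

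The first comparison asked which cytoskeletal genes differ in signal between rat ES cells and rat fibroblasts. A gene was called when limma gave a Benjamini-Hochberg adjusted p under 0.05 over all genes and the log2 difference, rat ES minus fibroblasts, was at least 1 in size, which is 2-fold. Of the 44 genes, 23 were called lower in rat ES cells (52.3%), where 10.1% of all genes were called lower. Only 4 were called higher (9.09%), where the share over all genes was 10.6%. With no fold threshold, 31 members were lower, against 3695 of 14511 genes, and 6 were higher, against 4479 of 14511. The median log2 difference of the 44 was -1.15, against -0.001 over all genes. Called differences of -2 or below were found in 15 members (34.1%), against 4.26% of all genes, and of -4 or below in 9 (20.5%), against 0.903%. The other 17 members were not called, and 10 of these had an adjusted p under 0.05 with a difference under 2-fold. Of all genes, 20.7% were called in either direction, and 56.3% passed the adjusted p alone. For 39 of the 44 (88.6%) the rat ES and fibroblast signals were fully separate, where 61.5% of all genes were. There was no filter on low values, so all 44 entered the test. In bulk RNA, fewer cells of a type and less RNA per cell cannot be told apart. Cell type and medium changed together between the rat groups and cannot be told apart either.

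**Figure D1:**
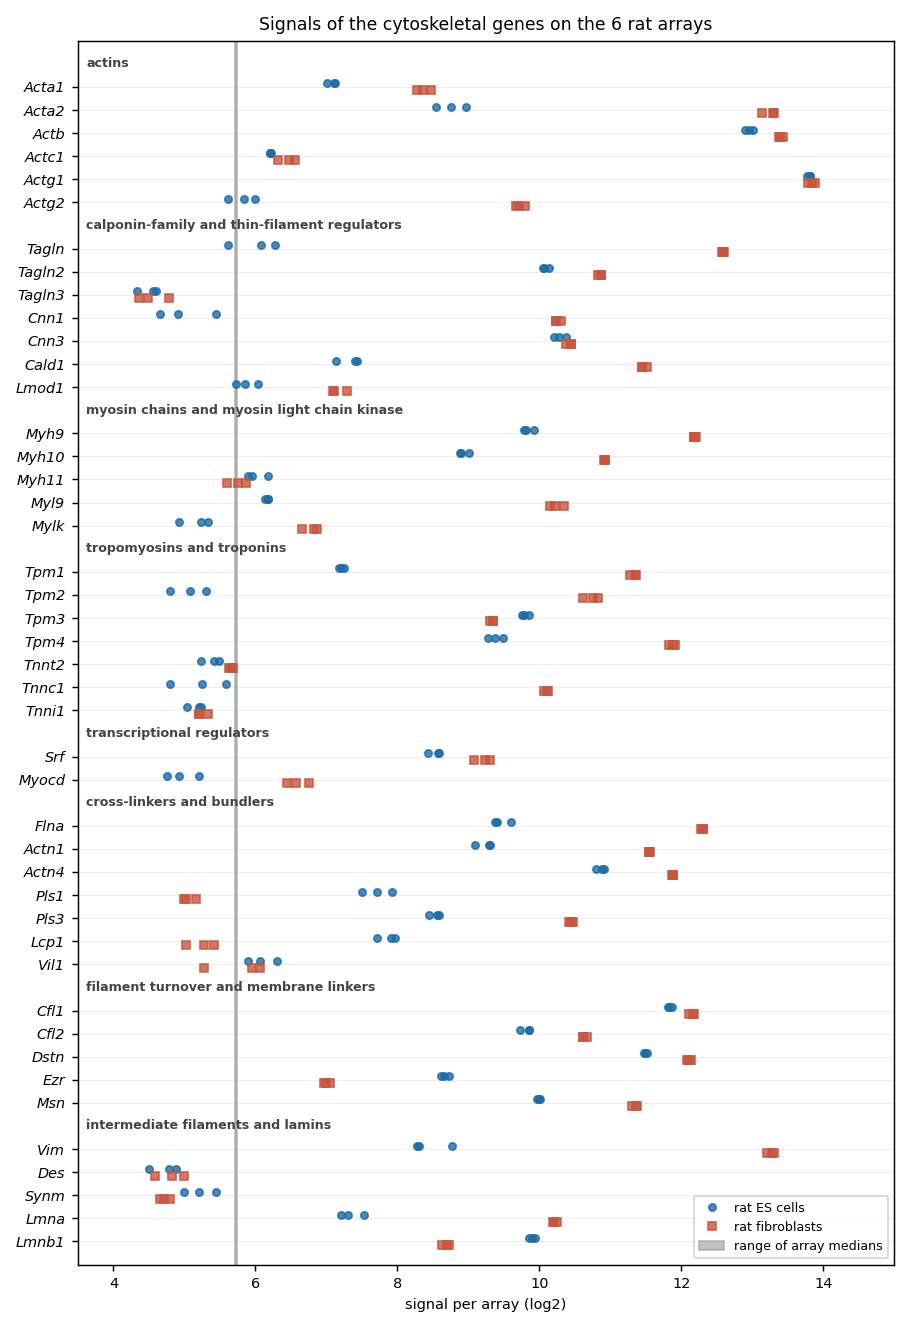
Signal (log2) of each of the 44 genes on the 6 rat arrays, with rat ES cells as circles, rat fibroblasts as squares and the range of the array medians (5.71 to 5.74) as a grey band. Tagln, Tpm2, Cnn1, Tnnc1, Vim and Acta2 show wide gaps between the groups, while Actg1, Tagln3, Tnni1, Vil1 and Des overlap.

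Signals below the array medians were read with caution, since background could not be measured separately here. Of the 23 genes called lower, 5 (Cnn1, Mylk, Tpm2, Tnnc1 and Myocd) lay below the array medians on all rat ES arrays, and of the 4 called higher, Pls1 and Lcp1 did so on all fibroblast arrays. Tagln and Actg2, also called lower, did so on 1 rat ES array each. The sizes of the differences of these 9 genes are therefore uncertain. Another 5 members, Tagln3, Tnnt2, Tnni1, Des and Synm, lay below the medians in both rat groups. Whether these genes are weakly expressed or their probe sets respond poorly was not tested.

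The transcriptional regulators come first. Srf, the DNA-binding factor itself, had signals of 8.43, 8.57 and 8.59 in rat ES cells, against 9.31, 9.08 and 9.23 in rat fibroblasts. All rat ES arrays were lower, but the log2 difference of -0.67 (SE 0.0842, limma adjusted p = 1.39e-04) stayed under 2-fold, so Srf was not called. Myocd, its cardiac and smooth muscle cofactor, had signals of 4.93, 4.76 and 5.21 in rat ES cells and 6.44, 6.75 and 6.57 in fibroblasts. It was called lower, at -1.62 (SE 0.127, adjusted p = 7.04e-06). No rat probe set was named for the MRTF cofactors, which were not analysed here.

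The promoters of the members were searched for the CArG box in the 250 bases before each annotated start. Only exact matches to CCWWWWWWGG, where W is A or T, were counted, a pattern that reads the same on both strands. Boxes with a mismatch were not searched for. RefSeq promoters of build GRCr8 were found for 40 members by symbol, and 4 of them (10.0%) held a match, where 445 of 27457 genes (1.62%) did. The matches were in Acta1, Actg1, Srf and Cnn2, of which Cnn2 was not measured in the rat table. The 3 measured promoters with a match are shown with that of Tpm2, which had the largest decrease among members with a promoter in the table and held no match. Bases run 5′ to 3′ and end just before the start, and capitals mark exact matches to the CArG box.
Acta1 (chr19:68784195-68784444, - strand): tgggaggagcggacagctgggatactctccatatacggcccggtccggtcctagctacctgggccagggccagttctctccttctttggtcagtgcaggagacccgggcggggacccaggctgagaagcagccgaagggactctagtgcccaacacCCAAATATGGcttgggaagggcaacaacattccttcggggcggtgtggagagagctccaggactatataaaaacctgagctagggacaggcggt
Actg1 (chr10:106120952-106121201, - strand): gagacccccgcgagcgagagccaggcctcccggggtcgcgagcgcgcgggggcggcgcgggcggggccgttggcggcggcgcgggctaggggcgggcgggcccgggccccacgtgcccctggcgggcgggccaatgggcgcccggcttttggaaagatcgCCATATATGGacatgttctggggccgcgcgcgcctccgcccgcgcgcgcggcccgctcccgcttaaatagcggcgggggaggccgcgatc
Srf (chr9:21923826-21924075, + strand): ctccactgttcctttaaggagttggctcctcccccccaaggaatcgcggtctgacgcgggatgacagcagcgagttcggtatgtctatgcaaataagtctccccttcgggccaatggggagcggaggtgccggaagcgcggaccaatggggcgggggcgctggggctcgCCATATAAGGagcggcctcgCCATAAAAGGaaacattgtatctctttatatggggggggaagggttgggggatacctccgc
Tpm2 (chr5:62575727-62575976, - strand): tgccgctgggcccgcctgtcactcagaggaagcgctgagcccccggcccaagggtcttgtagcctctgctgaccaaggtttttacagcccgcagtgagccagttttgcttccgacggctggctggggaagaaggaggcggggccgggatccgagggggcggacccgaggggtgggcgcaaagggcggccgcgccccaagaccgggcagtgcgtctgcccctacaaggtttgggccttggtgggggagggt
In the Srf promoter the exact matches began 81 and 61 bases before the start, while those of Actg1 and Acta1 began 90 and 94 bases before it. The log2 differences of these genes were -0.67 for Srf, -0.04 for Actg1 and -1.28 for Acta1, against -5.69 for Tpm2. Tpm2 was picked for its large decrease, so these values do not compare genes with and without a box. Tagln, with the largest decrease of all members (-6.60), had no promoter to search. A part of SRF in these differences was not tested. Over the whole 300-base window, which runs past the start, Actc1 was added (5 of 40, 12.5%, against 1.77% of all genes). A match is a description of letters, not of binding, and boxes farther away were not searched.

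Of the 6 actin genes, 3 muscle forms were called lower in rat ES cells, and both cytoplasmic forms and the cardiac form were not called. Acta2, the smooth muscle alpha-actin that marks contractile fibroblasts, had signals of 8.96, 8.76 and 8.54 in rat ES cells, against 13.29, 13.14 and 13.30 in rat fibroblasts. It was 22.5-fold lower in rat ES cells (log2 difference -4.49, SE 0.111, adjusted p = 1.15e-08). Actg2, the enteric smooth muscle actin, had 5.62, 5.84 and 6.0 in rat ES cells and 9.71, 9.80 and 9.67 in fibroblasts, and was called lower (-3.91, SE 0.102). The groups lay far apart for both genes. Acta1, the skeletal muscle actin, had 7.01, 7.11 and 7.12 in rat ES cells and 8.36, 8.27 and 8.47 in fibroblasts, and fell by 1.28 on the log2 scale (SE 0.0764).

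The cytoplasmic actins were close to the top of the array range, whose highest value was 14.33. Actg1, cytoplasmic gamma-actin, had 13.81, 13.81 and 13.77 in rat ES cells and 13.84, 13.78 and 13.88 in fibroblasts, with overlapping groups (-0.04, SE 0.0635, limma adjusted p = 0.666). After quantile normalization its difference was -0.20 (limma adjusted p = 0.0163), still under 2-fold. All 6 probe sets of Actg1 gave differences between -0.07 and -0.04. Whether they also detect other actins, or are compressed near the top of the range, was not tested. Actb, cytoplasmic beta-actin and a common loading control, had a mean of 12.95 ± 0.0607 in rat ES cells and 13.40 ± 0.0343 in fibroblasts (SD, n = 3). Its difference of -0.44 (limma adjusted p = 4.25e-04) was larger than the spread between arrays but under 2-fold, and was -0.68 after quantile normalization. Actc1, the cardiac actin, averaged 6.21 in rat ES cells and 6.45 in fibroblasts (-0.24, adjusted p = 0.0297) and was not called.

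The calponin family held the largest decrease of all members. Tagln (transgelin, SM22), an actin-binding protein of smooth muscle and activated fibroblasts, had signals of 6.08, 5.61 and 6.27 in rat ES cells, against 12.57, 12.58 and 12.60 in rat fibroblasts. The rat ES arrays spread over more than the fibroblast arrays, yet the gap between groups was many times wider. The difference was -6.60 (SE 0.15, adjusted p = 8.09e-09), over a rat ES signal near the array medians, so its size is uncertain. Cnn1, smooth muscle calponin, had 4.91, 4.66 and 5.44 in rat ES cells and 10.23, 10.31 and 10.23 in fibroblasts, and fell by 5.25 (SE 0.173). Cald1 (caldesmon), which ties actin to myosin and tropomyosin, had 7.13, 7.40 and 7.43 in rat ES cells and 11.52, 11.44 and 11.44 in fibroblasts, and fell by 4.15 (SE 0.0916). Of these, Tagln and Cnn1 are best known from contractile cells.

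The widely expressed relatives of Tagln and Cnn1 differed much less. Tagln2, the broadly expressed transgelin, had 10.05, 10.13 and 10.06 in rat ES cells and 10.87, 10.83 and 10.87 in fibroblasts. Its difference of -0.78 (SE 0.0633) was beyond the spread between arrays but under 2-fold. Cnn3, the acidic calponin, averaged 10.28 ± 0.079 in rat ES cells and 10.43 ± 0.0383 in fibroblasts (-0.14, limma adjusted p = 0.119). Tagln3, the neuronal form, averaged 4.49 and 4.55 with overlapping groups. Lmod1 (leiomodin), which seeds actin filaments in smooth muscle, averaged 5.87 in rat ES cells and 7.16 in fibroblasts and was called lower (-1.29). In this group 4 of 7 measured members were called lower and none higher.

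Of 5 measured myosin genes, 4 were called lower and none higher. Myl9, a regulatory light chain of smooth muscle and non-muscle myosin, had 6.14, 6.18 and 6.17 in rat ES cells and 10.15, 10.35 and 10.22 in rat fibroblasts, and was 16.8-fold lower (-4.07, SE 0.0737, adjusted p = 3.72e-09). Myh9, the heavy chain of non-muscle myosin IIA, had 9.78, 9.93 and 9.81 in rat ES cells and 12.18, 12.20 and 12.18 in fibroblasts (-2.35, SE 0.0674). Myh10, the heavy chain of myosin IIB, had 8.88, 8.90 and 9.01 in rat ES cells and 10.91, 10.92 and 10.92 in fibroblasts (-1.99, SE 0.0667). Both non-muscle heavy chains thus remained well above the array medians in rat ES cells, with no overlap between groups. Mylk, the kinase that activates smooth muscle and non-muscle myosin, averaged 5.16 in rat ES cells and 6.79 in fibroblasts (-1.62). Myh11, the heavy chain that marks differentiated smooth muscle, averaged 6.01 ± 0.144 in rat ES cells and 5.74 ± 0.133 in fibroblasts (0.27, limma adjusted p = 0.051), and was not called. The rat fibroblasts thus had high signals of Acta2, Tagln and Cnn1 beside a Myh11 signal near the array medians. Of 5 other genes read as smooth muscle markers, Casq2 (-4.78), Smtn (-1.60) and Pln (-1.54) were called lower in rat ES cells. Casq2 and Pln are also known from cardiac muscle, so they do not mark smooth muscle alone. Kcnmb1 and Rgs5 were not called and lay below the medians of all rat arrays. The summed level of the 5 was 7.99 to 8.13 in rat ES cells and 10.03 to 10.11 in fibroblasts (log2). Smtn (8.82) and Casq2 (8.76) had the highest fibroblast means among them.

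Among tropomyosins and troponins, 4 of 7 were called lower and none higher. Tpm2, beta-tropomyosin, had 5.08, 4.79 and 5.30 in rat ES cells, against 10.83, 10.76 and 10.62 in rat fibroblasts (-5.69, SE 0.127, adjusted p = 7.46e-09). Tpm1, alpha-tropomyosin, had 7.18, 7.21 and 7.25 in rat ES cells and 11.34, 11.36 and 11.28 in fibroblasts, a 17.3-fold decrease (-4.11, SE 0.0634). Tpm4, a non-muscle form, had 9.27, 9.37 and 9.48 in rat ES cells and 11.88, 11.91 and 11.83 in fibroblasts (-2.50, SE 0.0748). Tpm3 pointed the other way, with a mean of 9.80 ± 0.0559 in rat ES cells and 9.34 ± 0.0236 in fibroblasts. Its difference of 0.46 (SE 0.0646, limma adjusted p = 2.85e-04) exceeded the spread between arrays but was under 2-fold. The 4 tropomyosin genes therefore differed from each other in size and sign across the same arrays. The probe sets give a gene total, and the splice forms of each tropomyosin were not separated.

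Tnnc1, the calcium-binding troponin subunit of slow skeletal and cardiac muscle, stood out among the troponins. It had 5.58, 5.25 and 4.79 in rat ES cells, against 10.11, 10.12 and 10.07 in fibroblasts (-4.89, SE 0.174, adjusted p = 7.06e-08). The other troponin genes had low signals throughout. The cardiac troponin T gene Tnnt2 averaged 5.38 in rat ES cells and 5.65 in fibroblasts, and the slow troponin I gene Tnni1 5.16 and 5.25, all below the array medians, where a change could be missed. Tnnt2 differed by -0.27 (limma adjusted p = 0.0158) with no overlap between groups. Of the 7 skeletal muscle markers, 5 lay under the medians of both groups. The myogenic factor genes Myod1 (4.87 in rat ES cells, 5.05 in fibroblasts) and Myog (4.83 and 4.87) were among them, while Myf5 (5.57 and 5.62) lay near the medians and Ckm (6.48 and 6.70) above them.

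**Figure D2:**
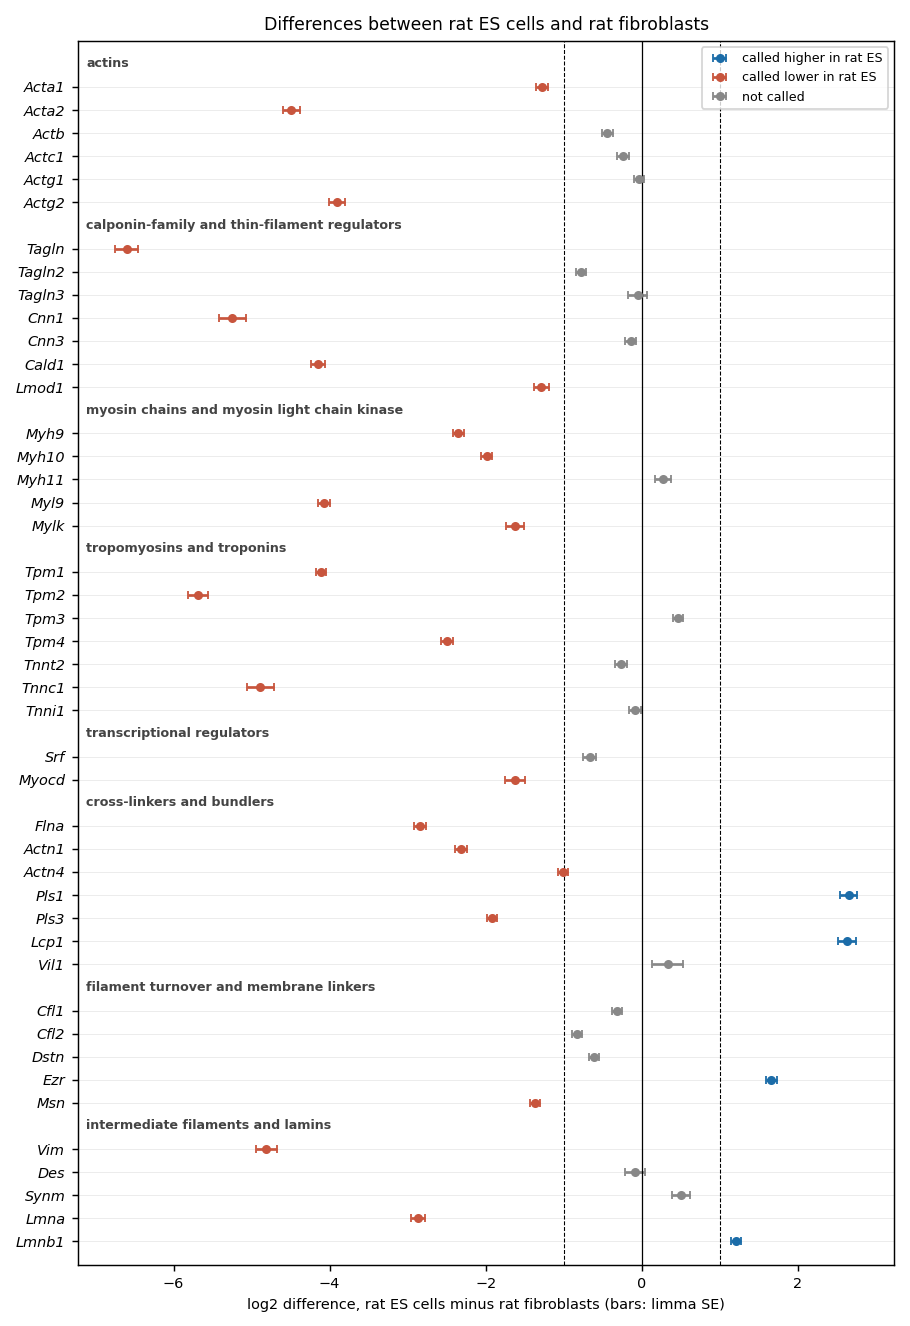
Log2 difference of each of the 44 genes, rat ES cells minus rat fibroblasts, with bars for the limma standard error and dashed lines at a difference of 1 in either direction. Tagln (-6.60) and Tpm2 (-5.69) lie farthest to the left, and Pls1 (2.65), Lcp1 (2.63), Ezr (1.66) and Lmnb1 (1.21) are the 4 genes to the right of the dashed line.

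The cross-linkers and bundlers held calls in both directions, with 4 of 7 lower and 2 higher. Flna (filamin A), which cross-links actin into networks, had 9.38, 9.40 and 9.60 in rat ES cells and 12.28, 12.30 and 12.30 in rat fibroblasts (-2.84, SE 0.077). The alpha-actinin gene Actn1 averaged 9.23 in rat ES cells and 11.55 in fibroblasts (-2.32). Actn4, the other non-muscle alpha-actinin, had 10.80, 10.88 and 10.91 in rat ES cells and 11.88, 11.88 and 11.87 in fibroblasts. At -1.01 (SE 0.0642) it was the called member nearest the threshold, and it dropped to -0.98 without rat ES array 1. The uncalled members nearest to it were Cfl2 (-0.83) and Tagln2 (-0.78).

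The plastins, also called fimbrins, bundle actin filaments and differed from each other in direction. Pls1, the plastin of intestinal and inner ear microvilli, had 7.5, 7.71 and 7.92 in rat ES cells, against 4.99, 5.16 and 5.02 in rat fibroblasts (2.65, SE 0.111, adjusted p = 1.69e-07). Lcp1, the plastin best known from white blood cells, had 7.71, 7.91 and 7.97 in rat ES cells and 5.42, 5.02 and 5.28 in fibroblasts (2.63, SE 0.116, adjusted p = 2.29e-07). Every rat ES array was above every fibroblast array for both. Pls3, the widely expressed plastin, went down, with a mean of 8.53 ± 0.0748 in rat ES cells and 10.45 ± 0.0256 in fibroblasts (-1.92, SE 0.0678, limma adjusted p = 6.79e-08). Because Lcp1 is a blood cell gene, 7 blood and macrophage markers were read beside it. Ptprc, Cd53, Spi1 and Csf1r were under the medians of all rat arrays, 6 of the 7 markers were under those of the rat ES arrays, and Laptm5 alone was called (3.87, higher in rat ES cells). The summed level of the 7 markers was 8.75 to 9.02 in rat ES cells and 7.25 to 7.33 in fibroblasts (log2). Laptm5 alone averaged 8.34 in rat ES cells and 4.48 in fibroblasts, and every other marker lay under the medians of all rat arrays. Vil1 (villin), a bundling protein of microvilli, averaged 6.09 in rat ES cells and 5.76 in fibroblasts, with overlapping groups (0.33, limma adjusted p = 0.2).

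Among the genes of filament turnover and membrane linkage, the linkers of the ERM family also split. Ezr (ezrin), which ties actin to the apical membrane of epithelial cells, had 8.66, 8.61 and 8.73 in rat ES cells, against 7.05, 7.0 and 6.97 in rat fibroblasts, and was 3.17-fold higher (1.66, SE 0.0668, adjusted p = 1.38e-07). Msn (moesin), its relative, had 9.96, 9.99 and 10.01 in rat ES cells and 11.38, 11.31 and 11.36 in fibroblasts, and was 2.58-fold lower (-1.37, SE 0.0622). Epithelial markers ran in the direction of Ezr: all 6 were called higher in rat ES cells, where their summed level was 11.83 to 12.11, against 7.78 to 7.80 in fibroblasts (log2). Their part in the Ezr result was not tested.

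The actin-severing proteins differed by less than 2-fold. Cfl1, the non-muscle cofilin, had 11.82, 11.87 and 11.81 in rat ES cells and 12.10, 12.18 and 12.17 in rat fibroblasts (-0.32, SE 0.0634). Cfl2, the muscle cofilin, had 9.85, 9.85 and 9.72 in rat ES cells and 10.62, 10.67 and 10.61 in fibroblasts (-0.83, SE 0.0685). Dstn (destrin) averaged 11.50 and 12.11 (-0.61). The groups did not overlap for any of these 3 genes, so small differences in 1 direction were measured with little spread.

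Of 5 intermediate filament and lamin genes, 2 were called lower and 1 higher. Vim (vimentin), the intermediate filament of mesenchymal cells, had 8.27, 8.31 and 8.77 in rat ES cells, against 13.27, 13.21 and 13.31 in rat fibroblasts (28.1-fold lower, SE 0.131 on the log2 scale). The nuclear lamins moved apart. Lmna, which encodes lamins A and C, had 7.21, 7.31 and 7.53 in rat ES cells and 10.19, 10.21 and 10.25 in fibroblasts (-2.87, SE 0.0907, adjusted p = 3.99e-08). Lmnb1, which encodes lamin B1, had 9.94, 9.89 and 9.85 in rat ES cells and 8.70, 8.73 and 8.63 in fibroblasts (1.21, SE 0.0656, adjusted p = 7.67e-07). Des (desmin), the muscle intermediate filament, averaged 4.72 and 4.81 with overlapping groups. Synm (synemin) averaged 5.22 in rat ES cells and 4.72 in fibroblasts (0.50, limma adjusted p = 0.00514) and was not called.

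Between the 3 rat ES arrays, members called lower varied about as much as all genes called lower. Their median range was 0.3 (log2), against 0.27 for all genes called lower and 0.19 for all genes tested. Of the 23 members called lower, 15 (65.2%) had their highest rat ES signal on array 3. The share was 51.4% for all genes called lower and 38.9% for all genes tested. Vim was higher there (8.77, against 8.27 and 8.31 on arrays 1 and 2), while Acta2 was lowest there (8.54, against 8.96 and 8.76). Fibroblast markers also differed between these arrays. Their summed level was 10.98, 11.38 and 11.69 on rat ES arrays 1, 2 and 3, and 15.69 to 15.76 in fibroblasts (log2, 10 markers). The summed level of the epithelial markers rose in the same order, at 11.83, 11.99 and 12.11. That of the pluripotency markers did not, at 13.46, 13.46 and 13.39. Of the 9 fibroblast markers called lower, 8 were highest on rat ES array 3. The part of these markers in the residual cytoskeletal signals was not tested. Without array 3, the counts of members called lower and higher were still 23 and 4.

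Other cytoskeletal genes, outside the list of 49, were read in 5 lists, to be set beside the 10.1% of all genes called lower and 10.6% called higher. Of 17 LIM and PDZ-LIM proteins of actin fibres, 9 were called lower in rat ES cells and none higher, and the median was -1.34 (log2). Tgfb1i1 (Hic-5), a focal adhesion LIM protein, differed by -4.39, and Fhl2, a LIM-only cofactor, by -3.26. Of 27 other myosins and troponins, 6 were called lower and none higher (median -0.14), led by the membrane-linked myosins Myo1c (-3.07) and Myo1e (-1.75).

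Most genes of actin assembly and capping were not called. This held for 35 of 39, against 11514 of 14511 genes, and the median was -0.23. Of the 39, 26 had an adjusted p under 0.05, where 56.3% of all genes did. No overlap between groups was seen for 31, where 61.5% of all genes had none. Of these 31, 23 had lower signals in rat ES cells. Lima1, which stabilises bundles, differed by -2.88 and Tmsb4x, which sequesters monomers, by -2.02. The 2 genes called higher were Arpc1b (1.07), a subunit of the Arp2/3 complex, and the formin gene Diaph1 (1.01), both named after their values were seen. Of 16 other cross-linkers and cortical linkers, 3 were called lower, Synpo (-1.61) the most, and 1 higher, Ablim1 (3.89). Of 20 other intermediate filament, nuclear envelope and plakin genes, 7 were called higher and 3 lower (median 0.08). Krt18, a keratin of simple epithelia, was higher by 4.58 and the neurofilament light chain gene Nefl by 4.48, while the nuclear envelope linker gene Syne1 fell by 2.06.

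**Figure D3:**
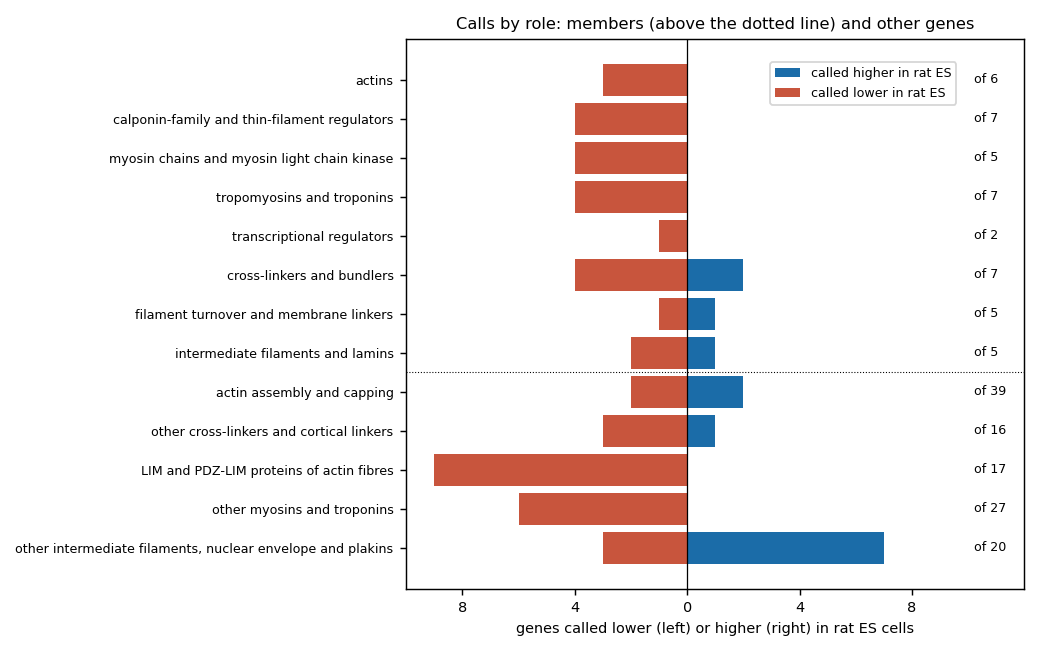
Number of genes called lower (bars to the left) or higher (bars to the right) in rat ES cells than in rat fibroblasts, by role, with the number measured at the right edge. The 8 upper rows hold the 44 members and the 5 lower rows hold other cytoskeletal genes, among which the LIM proteins had 9 of 17 lower and the assembly genes 2 of 39.

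The second comparison asked where the same genes rank in mouse ES cells. The mouse arrays are of another platform, with values in a table of their own. Each gene was therefore given its percentile within each array among the 12118 symbols shared by both tables. Species, platform and medium differ together between mouse and rat ES cells and cannot be told apart. The mouse arrays also shared many identical values: 22 of the 48 members named in the mouse table (45.8%) had the same value on all 3 arrays. No SD or test over the mouse arrays is therefore given. Across the 43 shared members the median percentile was 62.6 in mouse ES cells, 66.4 in rat ES cells and 95.9 in rat fibroblasts.

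A gene was counted as different between mouse and rat ES cells when the 3 mouse and 3 rat percentiles did not overlap and their means differed by at least 10 points. By this rule 9 of the 43 members (20.9%) were higher in mouse ES cells, where 22.9% of all shared genes were, and 7 (16.3%) were lower, where 22.0% were. The median absolute difference was 8.11 points for members and 8.63 for all shared genes.

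The 5 largest differences toward mouse ES cells were in Tpm2, Tagln3, Tpm1, Des and Lmna. Tpm2 stood at percentiles 60.9, 61.9 and 60.8 in mouse ES cells, against 24.9, 20.1 and 28.3 in rat ES cells. Tpm1 stood at 89.8, 88.4 and 89.6 in mouse ES cells, against 58.3, 58.1 and 58.6 in rat ES cells. Neither gene overlapped between the species. Another tropomyosin gene, Tpm4, passed the rule the other way, with means of 79.5 in mouse ES cells and 90.6 in rat ES cells. Tagln3 had mean percentiles of 46.7 in mouse ES cells and 15.1 in rat ES cells, Des of 48.4 and 18.7, and Lmna of 75.8 and 60.5. Tpm2, Tagln3 and Des lay below the array medians on all rat ES arrays, so their ranks there carry little information. Tpm2, Tagln3, Des and Lmna had the same signal on all 3 mouse arrays. Their mouse percentiles are therefore not separate readings, and the lack of overlap rests on a single mouse value.

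The 5 largest differences toward rat ES cells were in Lcp1, Vil1, Myh11, Pls3 and Pls1. Lcp1 stood at 40.2, 40.0 and 40.2 in mouse ES cells, against 66.9, 70.0 and 70.9 in rat ES cells. The other plastins pointed the same way, with mean percentiles of 49.5 in mouse ES cells and 66.4 in rat ES cells for Pls1, and 62.6 and 80.0 for Pls3. Vil1 had 18.5 in mouse ES cells and 41.8 in rat ES cells, and the smooth muscle heavy chain gene Myh11 19.0 and 40.4. Mouse signals of Vil1 (4.03) and Myh11 (4.07) lay below the mouse array medians (4.75 to 4.77), so their ranks there carry little information. Lcp1, Vil1, Myh11 and Pls1 also had the same signal on all 3 mouse arrays, so the lack of overlap rests on a single mouse value. Ezr ranked high in both, at 95.6 in mouse ES cells and 82.2 in rat ES cells, but passed the rule as higher in mouse ES cells.

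Mouse percentiles were also set against both rat groups. Of the 23 members called lower in rat ES cells, 18 (78.3%) had a mouse ES percentile nearer to rat ES cells than to rat fibroblasts, where 74.3% of all genes called lower did. The other 5 were Tpm1, Tpm2, Flna, Actn4 and Vim. Vim had mean percentiles of 91.0 in mouse ES cells, 79.0 in rat ES cells and 99.9 in rat fibroblasts, and Flna had 97.6, 91.3 and 99.7. Of the 4 members called higher in rat ES cells, 3 were nearer to rat ES cells, where 59.0% of all genes called higher were. Lmnb1, at 98.1 in mouse ES cells, 94.3 in rat ES cells and 83.4 in rat fibroblasts, was among them, and Lcp1 was the exception.

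Contractile genes did not share a single pattern across the 3 groups. The cardiac actin gene Actc1 (54.3, 43.4 and 45.8 in mouse ES cells, rat ES cells and rat fibroblasts), Myh11, Tnnt2, Tnni1 and Des did not rank far higher in fibroblasts. Actg2, Cnn1, Myl9, Tnnc1 and Tagln, chosen here after their values were seen, did. Actg2 stood at 21.5 in mouse ES cells, 37.5 in rat ES cells and 93.3 in rat fibroblasts. Cnn1 stood at 32.2, 23.4 and 96.1 in the same order of groups, Myl9 at 45.2, 42.7 and 95.9, and Tnnc1 at 23.3, 27.0 and 95.4. Tagln stood at 52.3 in mouse ES cells, 40.1 in rat ES cells and 99.8 in rat fibroblasts. Probe sets of a gene did not always rank alike in the mouse table: the 4 for Tpm3 had mean signals from 6.53 to 11.20 (log2), and the pair for Myh9 5.61 and 9.63.

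**Figure D4:**
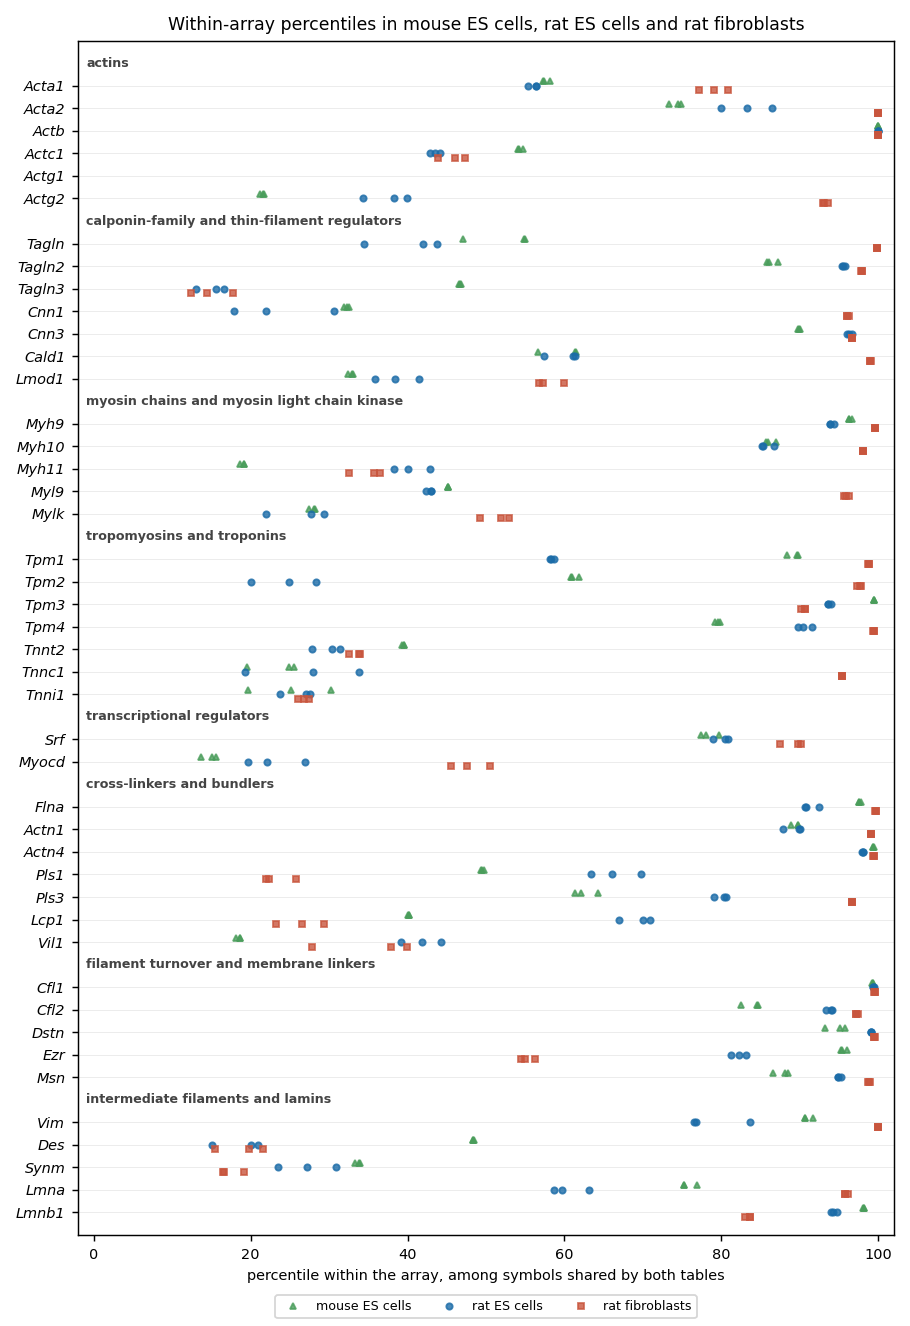
Percentile of each gene within each array, among the symbols shared by both tables, for mouse ES cells (triangles), rat ES cells (circles) and rat fibroblasts (squares). Actg2, Cnn1, Myl9 and Tnnc1 sit below 50 in ES cells of both species and above 90 in fibroblasts, while Tpm1 and Tpm2 of mouse ES cells lie between the rat groups. Actg1 has no points because it was not named in the mouse table.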

How the data were processed

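Biotin-labelled single-stranded DNA made from total RNA was hybridized to arrays, 1 sample each, per the labels' protocols. Probe set values on a log2 scale were deposited for 6 rat arrays and, in a separate table, for 3 mouse arrays. That scale was read from the values, and how the authors corrected background and normalized is not given in the sources used here. Values were used as deposited. Genes were named by the platform annotation supplied, which can be old. Only probe sets listing a single symbol were used, and 6 rat probe sets that repeat the same symbol, Myh9 among them, were kept among them. The probe set with the highest mean stood for its gene.

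The rat comparison used lmFit and eBayes of limma 3.58.1 (R 4.3.3) with group as the sole term and adjustment over all 14511 genes. The code was tested on simulated data. Mouse values were compared only as percentiles. The members, lists and tests were chosen with earlier results of these data known. Signals of every array are given for the 3 members with the largest difference in each role group, any member called against its group's majority and the member with the highest mean. A further list of genes is not reported here. Other lists are led by their 2 largest called differences and up to 1 opposite call. The 5 largest and 5 smallest percentile differences past the rule are named. Same-numbered arrays of the rat groups had deviations that correlated at -3.7e-04, 0.031 and -2.7e-04, so numbers were not treated as pairs. Alternatives were other normalizations, level filters, probe set rules, thresholds, eBayes settings, percentile rules, a replicate block and leaving out each array.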

Additional observations from a re-analysis of the deposited data

How the results depend on the processing

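The rat comparison had 23 members called lower and 4 called higher, and these counts were the same with quantile normalization, median centring, a filter on the lowest 25 percent of levels, the mean of probe sets, trend and robust eBayes, an adjusted p threshold of 0.01 and the replicate block (23 and 4). They were 21 and 3 with the filter at the median of level, and 22 and 4 without the probe sets that repeat a symbol, an alternative chosen after seeing the data. With no fold threshold they were 31 and 6 (3695 and 4479 of all genes), and at a log2 threshold of 2 they were 15 and 2 (618 and 378). Leaving out each array gave 22 to 23 lower and 4 higher, Actn4 being lost without rat ES array 1. Differences of Des (-0.20 to 0.02) and Tagln3 (-0.14 to 0.07), neither of them called, changed sign when single arrays were left out; the cause was not tested.

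In the percentile comparison, 9 members were higher and 7 lower in mouse ES cells. These counts were 14 and 14 at 5 points (34.0% and 32.7% of all shared genes), 4 and 3 at 20 points (8.96% and 9.75%), and 12 and 6 with percentiles among all named genes (29.2% and 15.3%). They ran from 8 to 11 and from 7 to 9 without single arrays. Only 9 members had 3 different mouse values, and among them 1 was higher and 1 lower, while 3 of those called lower and 1 of those called higher between the rat groups were nearer to rat ES cells. The 18 members called lower and nearer to rat ES cells became 16 with percentiles among all named genes and 18 to 19 without single arrays. The CArG count was 4, and 5 over the whole window. Protein identity between family members was not analysed here. Low signals that cannot be separated from background limit the sizes of differences, and arrays per group limit all precision.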
